A study of Mus musculus with 9 samples.

Results

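The early response to dietary heme was read from 5 of the 9 arrays of the series: the heme-diet pools of days 2 and 4, set against the control-diet pools of days 0, 2 and 4. All mice were male C57BL/6J animals, an inbred laboratory strain, aged 9 to 11 weeks, and during a run-in of 1 week all of them, controls included, ate the control diet, in which fat supplied 40% of the energy. They then stayed on that diet or received it with 0.2 µmol heme per g. The control pool of day 0 was taken when the run-in ended, before any heme was fed. Epithelial cells were scraped from the opened and washed colon, and RNA was pooled by diet and day, from 4 mice per early pool, or 3 for controls on day 2. Each pool was hybridised to 1 array, so no diet and day has a replicate, and every p-value here rests on how far pools taken on different days vary, with no measure of animal-to-animal variation. The arrays of days 7 and 14 (2 control and 2 heme pools) are called the late pools and serve mainly for comparison. They also enter the filter on dim genes, which uses means over all arrays, and a further fit over all 9 arrays.

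Heme is the iron-bearing pigment of red meat, and in the gut it is a source of reactive compounds and of damage to surface cells. PPAR alpha is a nuclear receptor that binds fatty acids and, paired with RXR, switches on genes for their binding, activation and oxidation in mitochondria and peroxisomes. Nrf2 is a transcription factor that is set free from Keap1 under oxidative or electrophilic stress and switches on genes for glutathione, NADPH and detoxification.

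Levels are the deposited log2 values of robust multi-array averaging (RMA), a normalization that puts all arrays on 1 scale, so a difference of 1 is a doubling. The difference between diets was tested with limma, a linear model with moderated variances, over 14953 genes with p-values adjusted over all of them by Benjamini and Hochberg's method, and genes under 0.05 after adjustment were called. Levels of different genes are not compared, because a probeset's brightness is its own.

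The pools carried the markers of colon epithelium. All 24 genes on a list of colonocyte markers were measured, with a median difference between diets of 0.02 log2. Car1, the carbonic anhydrase of surface colonocytes, lay at 13.33, 13.35 and 13.38 log2 in the control pools of days 0, 2 and 4 and at 13.37 and 13.42 in the heme pools of days 2 and 4, and the groups overlapped. Muc2, the main goblet cell mucin, lay at 13.28, 13.27 and 13.25 in the control pools and at 13.21 and 13.27 in the heme pools, which also overlapped. Both pools of day 2 also held pancreatic RNA. Of 35 exocrine pancreas genes, 23 were tested, and relative to the mean of the 3 early control pools their median lay at 1.88 log2 in the control pool and 2.55 in the heme pool of day 2, against -1.08, -1.05 and -1.05 in the control pools of days 0 and 4 and the heme pool of day 4. Cpb1, a pancreatic carboxypeptidase, lay at 4.04, 10.09 and 4.09 in the control pools and at 10.68 and 4.16 in the heme pools. These genes are treated as carry-over from the pancreas and not as a response. Genes of connective tissue moved with the pools as well. The median of 15 fibroblast and stroma genes lay at -0.27 in the control pool and -0.49 in the heme pool of day 2, at 0.35 in the control pool of day 4, and at -0.08 in the heme pool of day 4. The medians of 16 smooth muscle genes and 15 macrophage and dendritic cell genes had the same order at both ends, low on day 2 and highest in the control pool of day 4.

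**Figure D1:**
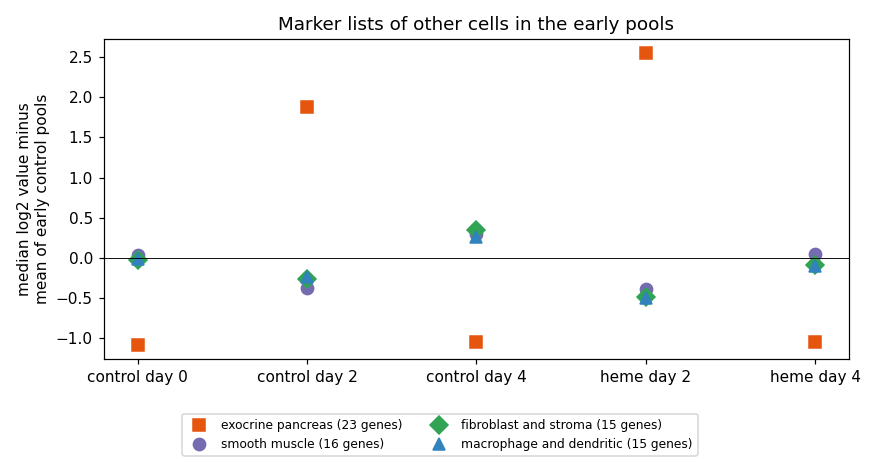
Median over each marker list of the log2 value minus the mean of the 3 early control pools (y axis) in each of the 5 early pools (x axis), 1 array per point. Exocrine pancreas genes stand at 1.88 and 2.55 in the day 2 pools and near -1.05 elsewhere, and the smooth muscle, fibroblast and macrophage lists are lowest in the day 2 pools and highest in the control pool of day 4.

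Within these limits, the first days on heme were marked by higher levels of fatty acid genes and, with fewer members, of Nrf2 targets. Single absorptive, goblet and immune genes were lower, with weaker support. The median differences of the colonocyte and goblet marker lists were small, at 0.02 and -0.04 log2. No gene was called in the comparison of 2 heme with 3 control pools. The smallest adjusted p was 0.0956, for Sprr1a, and at an unadjusted p under 0.05 there were 610 genes higher (4.08% of those tested) and 365 lower (2.44%), together 975 (6.52%), where chance gives about 748. Both heme pools lay above all 3 control pools in 1751 genes (11.7%) and below all 3 in 1154 (7.72%). Of all genes, 32 (0.214%) were in addition at least 1.5-fold higher, and 8 (0.0535%) at least 1.5-fold lower. Of the 32, 12 were on the list of fatty acid genes (PPAR alpha targets and enzymes of oxidation) and 4 on that of Nrf2 targets, and 12 of them (0.0803% of all genes) were at least 2-fold higher. An exact permutation of 2 against 3 pools cannot go below p = 0.1. A fit over all 9 arrays in 4 groups, which borrows the spread of the late pools, called 31 genes: 30 higher (0.201%) and 1 lower (0.00669%), and 16 when a term for the 2 pools of day 2 was added. It is given below as the 4-group fit. Without both pools of day 2 the heme pool of day 4 lay above the control pools of days 0 and 4 in 4922 genes (32.9%) and below them in 4124 (27.6%), with 729 higher (4.88%) and 520 lower (3.48%) at an unadjusted p under 0.05.

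**Figure D2:**
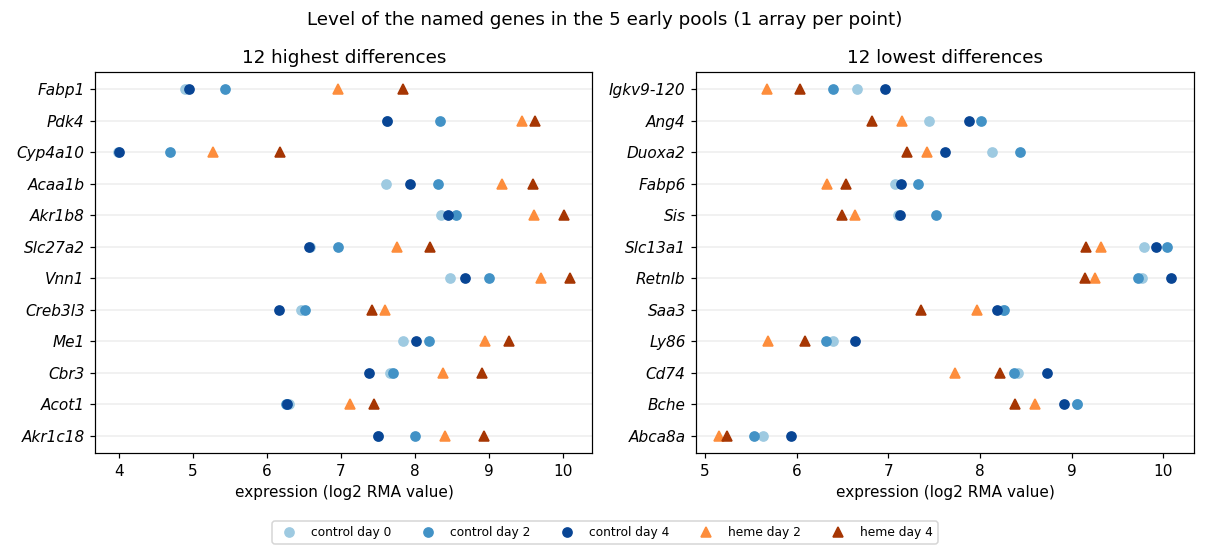
Level (x axis, log2 RMA value) of the 12 genes with the highest and the 12 with the lowest difference between diets (y axis) in the control pools of days 0, 2 and 4 (circles) and the heme pools of days 2 and 4 (triangles), 1 array per point. The genes were chosen because the triangles lie beyond all circles. The difference ranges from 1.00 for Akr1c18 to 2.31 for Fabp1 on the left and from -0.51 for Abca8a to -0.81 for an immunoglobulin kappa segment on the right.

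Fatty acid genes were the largest group. Of 42 listed, 34 were tested (2 were below the filter on dim genes and 6 had no probeset of their own), and 30 of these lay above all 3 control pools in both heme pools, against 11.7% of all genes, with none below. At an unadjusted p under 0.05, 29 were higher and 0 lower, and the 4-group fit called 15, all higher. Without both pools of day 2, the heme pool of day 4 lay above the control pools of days 0 and 4 in 32 of the 34 and below them in 1. Over all genes these shares were 32.9% and 27.6%. The median difference was 0.37 log2, against 0.005 over all genes tested. This list and those below were chosen with earlier results of these data known. Their counts beside the shares of all genes are therefore descriptive and not independent support. Relative to the early control mean the list median lay at -0.05, 0.08 and -0.03 in the control pools of days 0, 2 and 4 and at 0.33 and 0.44 in the heme pools of days 2 and 4.

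Fabp1, the liver-type protein that carries fatty acids through the cytosol, had the highest difference of all genes whose pools did not overlap. It lay at 4.89, 5.43 and 4.94 log2 in the control pools of days 0, 2 and 4 and at 6.96 and 7.84 in the heme pools of days 2 and 4. The lowest heme pool stood well above the highest control pool, and the means were 5.09 ± 0.30 (SD, n = 3) and 7.40 ± 0.62 (SD, n = 2), a 4.97-fold difference (log2 difference 2.31, SE 0.30, adjusted p = 0.336, and 0.0155 in the 4-group fit). The control level is close to the filter of 4.716 log2, so the fold rests on a dim signal. The promoter of Fabp1 is shown because its gene led the list and because it alone among the 33 listed genes with a promoter window in the RefSeq table (build GRCm38.p6) holds the direct repeat that PPAR and RXR bind, searched as 2 copies of AGGNCA, both in 1 direction and with any 1 base between them, on both strands. That pattern was found in 125 of 32851 promoter windows (0.381%) and in 1 of the 35 windows of the list. The window is chr6:71199629-71199928 on the plus strand, from 250 bases before the start to 50 after. The first capitals mark the direct repeat, read on the opposite strand, which begins 67 bases before the start, and the second mark the core of the antioxidant response element described with Me1 below.

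Fabp1: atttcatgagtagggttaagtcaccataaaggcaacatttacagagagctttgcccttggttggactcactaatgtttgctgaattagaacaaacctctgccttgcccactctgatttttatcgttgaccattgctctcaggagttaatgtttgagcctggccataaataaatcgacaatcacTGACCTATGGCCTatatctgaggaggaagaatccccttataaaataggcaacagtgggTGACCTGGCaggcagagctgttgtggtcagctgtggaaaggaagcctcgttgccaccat

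Binding and uptake were represented by 2 further genes with large differences. Slc27a2, which takes up and activates long-chain fatty acids, lay at 6.58, 6.96 and 6.57 in the control pools and at 7.76 and 8.21 in the heme pools, without overlap (2.43-fold, adjusted p = 0.336, 0.0197 in the 4-group fit). Fabp2, the intestinal binding protein, lay at 10.93, 11.17 and 11.11 in the control pools and at 11.71 and 11.75 in the heme pools, a 1.58-fold difference with little spread in either group (log2 difference 0.66, SE 0.08, adjusted p = 0.0125 in the 4-group fit). Cd36, a fatty acid translocase, overlapped between diets (log2 difference -0.12).

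Enzymes that act on acyl-CoA followed. Acot1, the cytosolic thioesterase, was nearly the same in the control pools (6.30, 6.26 and 6.27) and lay at 7.13 and 7.45 in the heme pools, a 2.02-fold difference (SE 0.10 log2, adjusted p = 0.267, 0.0127 in the 4-group fit). Acot2, its mitochondrial relative, lay at 7.80, 7.96 and 7.97 against 8.65 and 9.05, a 1.92-fold difference. The sequences of these paralogs are close, and how far their probes share signal was not tested. Vnn1, a pantetheinase that works in coenzyme A recycling, lay at 8.47, 9.00 and 8.67 in the control pools and at 9.70 and 10.09 in the heme pools, 2.28-fold higher. Acsl5, an acyl-CoA synthetase, showed no such separation, with a log2 difference of 0.02 and overlapping pools.

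Among mitochondrial enzymes, differences ran from small to large. Acaa2, the mitochondrial thiolase, lay at a mean of 10.07 ± 0.07 (SD, n = 3) in the control pools, none above 10.13, and at 10.56 and 10.58 in the heme pools (log2 difference 0.50, SE 0.05, adjusted p = 0.267, 0.0136 in the 4-group fit). Hadha, a subunit of the trifunctional protein of beta-oxidation, differed by 0.42 log2 and Cpt2, the inner-membrane carnitine palmitoyltransferase, by 0.36, each without overlap. Cpt1a, the outer-membrane enzyme that admits fatty acids to mitochondria, lay at 10.69, 10.73 and 10.66 in the control pools and at 10.85 and 10.92 in the heme pools. Its 1.14-fold difference was without overlap but was not called in the 4-group fit (adjusted p = 0.509). Pdk4, the kinase that shuts pyruvate out of the citric acid cycle, lay at 7.62, 8.34 and 7.63 in the control pools and at 9.44 and 9.62 in the heme pools. Its 3.18-fold difference (log2 difference 1.67, SE 0.24, adjusted p = 0.336, 0.0295 in the 4-group fit) was the second highest.

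The next genes encode enzymes of peroxisomes and microsomes. Acaa1b, a peroxisomal thiolase, lay at 7.60, 8.31 and 7.93 in the control pools and at 9.17 and 9.59 in the heme pools, 2.71-fold higher. Ehhadh, the bifunctional enzyme of peroxisomal oxidation, lay at 8.71, 8.86 and 8.64 against 9.59 and 9.86, 1.99-fold higher (adjusted p = 0.0115 in the 4-group fit). Cyp4a10, an omega-hydroxylase of fatty acids, lay at 3.99, 4.69 and 3.99 in the control pools, below the filter level, and at 5.27 and 6.18 in the heme pools, so its 2.83-fold difference also rests on a dim signal. It was not called in the 4-group fit (adjusted p = 0.147). The filter uses means over all arrays, so Cyp4a10 was tested only because its heme pools were higher. The counts of higher genes, for this list and for all genes, include it although its control signal lay below the filter. Catalase (Cat), the peroxisomal enzyme that breaks down hydrogen peroxide, lay at 9.80, 10.10 and 9.95 against 10.54 and 10.73, 1.61-fold higher (adjusted p = 0.0265 in the 4-group fit, and 0.0639 with the day 2 term).

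Among regulators, Creb3l3, a membrane-bound transcription factor of lipid metabolism, lay at 6.46, 6.51 and 6.17 in the control pools and at 7.60 and 7.42 in the heme pools, 2.19-fold higher (adjusted p = 0.0119 in the 4-group fit). It was the exception among the 12 highest genes in that its heme level was lower on day 4 than on day 2. Angptl4, a secreted inhibitor of lipoprotein lipase, was 1.91-fold higher without overlap. The receptor itself, Ppara, overlapped between diets (log2 difference 0.11), and its coactivator Ppargc1a had the lowest difference of the list (-0.18), also with overlap.

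Fat-storing cells also make several of these proteins. Adipoq, the adipocyte hormone adiponectin, lay at 4.79, 6.08 and 5.30 in the control pools and at 5.89 and 5.46 in the heme pools, with the groups overlapping and the highest value in the control pool of day 2. Of 10 adipocyte markers 8 were tested, and their median lay at -0.17, 0.14 and 0.00 in the control pools and at 0.14 and 0.06 in the heme pools. Cidec, a lipid droplet protein on that list, was 1.56-fold higher on heme. The part of adipocyte RNA in the fatty acid differences was not tested.

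**Figure D3:**
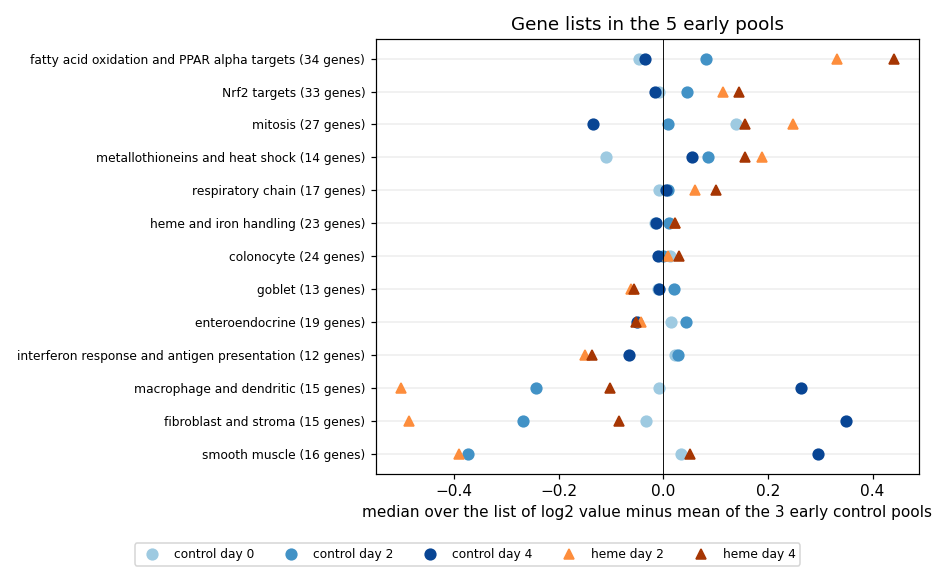
Median over each gene list of the log2 value minus the mean of the 3 early control pools (x axis) in the 5 early pools, with circles for control and triangles for heme pools and 1 array per point. Fatty acid genes stand at 0.33 and 0.44 in the heme pools against -0.05 to 0.08 in the control pools, whereas macrophage, fibroblast and smooth muscle genes spread as widely among the control pools as between diets.

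Nrf2 targets were higher as well, with a few large differences and many small ones. Of 38 listed, 33 were tested. Of these, 22 lay above all control pools and 1 below, against 11.7% and 7.72% of all genes. At an unadjusted p under 0.05 there were 18 higher and 1 lower, against 4.08% and 2.44%. The 4-group fit called 3. Without both pools of day 2, the heme pool of day 4 lay above the control pools of days 0 and 4 in 27 of the 33 and below them in 3. Over all genes these shares were 32.9% and 27.6%. The median difference was 0.12 log2, and the list median lay between -0.02 and 0.04 in the control pools and at 0.11 and 0.15 in the heme pools of days 2 and 4.

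Akr1b8, which reduces reactive aldehydes to alcohols, had the highest difference of the list and the smallest adjusted p of the 4-group fit (0.00928). It lay at 8.35, 8.55 and 8.44 in the control pools and at 9.61 and 10.01 in the heme pools, 2.58-fold higher (SE 0.13 log2). Me1, the malic enzyme that yields NADPH, lay at 7.84, 8.19 and 8.02 against 8.95 and 9.27, 2.14-fold higher (adjusted p = 0.0188 in the 4-group fit). Cbr3, a carbonyl reductase, lay at 7.66, 7.71 and 7.38 against 8.37 and 8.90, 2.08-fold higher, and was not called in that fit (adjusted p = 0.0853). Akr1c18, a steroid-reducing aldo-keto reductase that was on no list, lay at 7.50, 8.00 and 7.50 against 8.40 and 8.93. Ces1g, a carboxylesterase, was 1.61-fold higher and was called in the 4-group fit (adjusted p = 0.0402), but not with the day 2 term (0.0872).

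The core of the antioxidant response element, which Nrf2 and its partner Maf proteins bind, was searched as TGACNNNGC on both strands of the same promoter windows. It was found in 4071 of 32851 windows (12.4%), in 12 of the 38 windows of the Nrf2 list (31.6%) and in 3 of the 35 windows of the fatty acid list (8.57%). Of the 12 highest genes, 10 had a promoter window, with 12 windows in all. Of these windows 2 (16.7%) held it, those of Fabp1 and Me1. Sprr1a is on the list of injury and wound repair genes and not on that of Nrf2 targets. It and Me1 are shown because both genes were higher on heme and their windows hold the core. That of Me1 is chr9:86695865-86696164 and that of Sprr1a chr3:92485832-92486131, both on the minus strand and written along the gene, with the core in capitals. In Me1 it spans the start site, and in Sprr1a it lies 148 bases before the start and is read on the opposite strand. Neither window holds the PPAR repeat, and a match describes the letters only.

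Me1: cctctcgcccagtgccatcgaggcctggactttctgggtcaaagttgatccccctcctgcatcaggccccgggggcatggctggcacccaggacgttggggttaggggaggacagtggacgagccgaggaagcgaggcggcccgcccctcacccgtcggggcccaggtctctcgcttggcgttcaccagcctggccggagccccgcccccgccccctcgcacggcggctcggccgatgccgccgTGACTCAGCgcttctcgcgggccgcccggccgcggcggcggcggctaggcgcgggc
Sprr1a: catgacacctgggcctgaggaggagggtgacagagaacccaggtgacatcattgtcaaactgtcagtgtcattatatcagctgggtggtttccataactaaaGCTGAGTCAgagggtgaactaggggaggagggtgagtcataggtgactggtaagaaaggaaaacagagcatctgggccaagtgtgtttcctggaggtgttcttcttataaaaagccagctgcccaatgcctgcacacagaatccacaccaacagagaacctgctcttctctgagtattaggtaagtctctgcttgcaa

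Textbook Nrf2 targets differed less. Gclc, the catalytic subunit that limits glutathione synthesis, lay at 9.40, 9.60 and 9.51 in the control pools and at 9.97 and 9.96 in the heme pools, 1.37-fold higher without overlap (adjusted p = 0.107 in the 4-group fit). Nqo1, the quinone reductase, lay at 8.16, 8.39 and 8.28 against 8.60 and 8.74, 1.31-fold higher. Hmox1, the heme oxygenase that opens the heme ring, showed hardly any difference at this stage. It lay at 5.88, 5.68 and 5.77 in the control pools and at 5.89 in both heme pools, a log2 difference of 0.11 with an unadjusted p of 0.171. Slc7a11, the cystine importer, was the member below all control pools, at 5.01, 5.18 and 5.06 against 4.78 and 4.73. Nfe2l2, which encodes Nrf2, and Keap1, which holds it back, overlapped between diets.

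The other genes of heme and iron handling had small differences. Of 25 listed, 23 were tested, 6 lay above all control pools and none below, against 11.7% and 7.72% of all genes. The median difference was 0.03 log2. Ftl1, the light chain of the iron store ferritin, lay at 11.12, 11.18 and 11.10 in the control pools and at 11.31 and 11.45 in the heme pools, 1.19-fold higher. Abcg2, an exporter that also carries porphyrins, was 1.17-fold higher without overlap. The folate and heme carrier Slc46a1 and the iron importer Slc11a2 had the lowest differences (-0.24 and -0.15), both with overlap. Of 15 tested antioxidant enzymes outside the Nrf2 list, 6 lay above and 1 below all control pools, against the same shares of all genes. Beside Cat, these included the superoxide dismutase Sod1 (1.19-fold) and the lipid peroxidase Gpx4 (0.21 log2).

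Xenobiotic metabolism had 7 of 15 tested genes above and 1 below all control pools, out of 23 listed, against 11.7% and 7.72% of all genes. Aldh1a1, the retinaldehyde dehydrogenase, lay at 10.65, 10.94 and 11.02 in the control pools and at 11.59 and 11.64 in the heme pools, 1.68-fold higher (adjusted p = 0.0215 in the 4-group fit, and 0.0569 with the day 2 term). Cyp2c66 differed by 0.48 log2 and the sulfotransferase Sult1a1, the member below all control pools, by -0.17.

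Stress and injury genes are given next, by list. Sprr1a, a cornified envelope protein that squamous and injured epithelia make, had the smallest p of all genes tested. It lay at 7.78, 7.83 and 7.68 in the control pools and at 8.73 and 8.72 in the heme pools, 1.95-fold higher (log2 difference 0.96, SE 0.05, adjusted p = 0.0956). It missed the call also in the 4-group fit (adjusted p = 0.0558). Plaur, the urokinase receptor, was 1.34-fold higher without overlap. In all, 17 of 20 injury and wound repair genes were tested, of which 3 lay above and 5 below all control pools, against 11.7% and 7.72% of all genes, with a median difference of -0.09 log2.

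Hspa1a, an inducible heat shock chaperone, lay at 7.52, 7.67 and 7.85 in the control pools and at 8.69 and 8.49 in the heme pools, 1.88-fold higher (adjusted p = 0.336, 0.115 in the 4-group fit). Its sequence is nearly that of Hspa1b, which was not analysed here, and the genes may share signal. Of 17 metallothioneins and heat shock genes 14 were tested, and 6 lay above all control pools and none below, against 11.7% and 7.72% of all genes, with a median difference of 0.19 log2. The list median was lowest in the control pool of day 0 (-0.11), and lay at 0.09 and 0.05 in those of days 2 and 4 and at 0.19 and 0.16 in the heme pools. The metal-binding Mt2 and Mt1 overlapped between diets, with log2 differences of 0.57 and 0.37. The members at the low end, Mt3 and Hspb8, had differences of 0.04 and -0.05.

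Mitosis genes lay slightly higher on heme. All 27 tested mitosis genes, of 28 listed, were higher than the control pool of the same day on both days, against 25.6% of all genes. Of the 27, 17 lay above all control pools (11.7% of all genes) and none below. At an unadjusted p under 0.05, 9 were higher, and none was called in the 4-group fit. Without both pools of day 2, the heme pool of day 4 lay above the control pools of days 0 and 4 in 17 of the 27 and below them in none. Over all genes these shares were 32.9% and 27.6%. The median difference of mitosis genes was 0.19 log2. The list median lay at 0.14 in the control pool of day 0, 0.01 in that of day 2 and -0.14 in that of day 4, and at 0.25 and 0.15 in the heme pools, so the heme pool of day 4 stood beside the control pool of day 0. Ndc80, a kinetochore protein, had the highest difference (0.40 log2), at 5.83, 5.47 and 5.45 in the control pools against 6.01 and 5.95. Mki67, the proliferation marker, lay at 9.02, 8.92 and 8.73 against 9.10 and 8.98, with overlap. Among 27 tested DNA replication genes, of 28 listed, 9 lay above and 2 below all control pools, against 11.7% and 7.72% of all genes. The median difference was 0.08. Surface growth inhibitors and EGF receptor ligands had a median difference of 0.01, with 2 of 9 tested genes above and 1 below, against the same shares. Lgr5, the crypt stem cell receptor, overlapped between diets (log2 difference -0.01).

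Respiratory chain genes had small differences. Of 18 listed, 17 were tested, 10 lay above all control pools and none below, against 11.7% and 7.72% of all genes. At an unadjusted p under 0.05, 8 were higher, none was called in the 4-group fit, and the median difference was 0.08 log2. Ndufa4 had the highest difference (0.21) and Ndufb5, another respiratory subunit, the lowest (0.01).

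Lower genes were fewer, and their differences smaller. None of the 12 lowest genes was called in the 4-group fit, where their adjusted p ran from 0.113 for Bche to 0.892 for Ang4. Among absorptive genes, Slc13a1, the sodium-sulfate cotransporter, lay at 9.79, 10.04 and 9.92 in the control pools and at 9.32 and 9.16 in the heme pools, 1.60-fold lower (log2 difference -0.68, SE 0.09, adjusted p = 0.336, 0.236 in the 4-group fit). Sis, the sucrase-isomaltase of the brush border, lay at 7.10, 7.52 and 7.13 against 6.64 and 6.49, 1.61-fold lower. Fabp6, the bile acid binding protein, lay at 7.07, 7.32 and 7.13 against 6.33 and 6.54, 1.67-fold lower, the opposite side from Fabp1 and Fabp2. Slc5a8, a sodium-coupled transporter of short-chain fatty acids, differed by less and was nearly equal in the control pools. It lay at 11.37, 11.36 and 11.36 in the control pools and at 10.98 and 11.07 in the heme pools, 1.26-fold lower, and was the lower gene that the 4-group fit called (adjusted p = 0.0215), a call lost with the day 2 term (0.0587). Outside the absorptive genes, Bche, butyrylcholinesterase, was 1.44-fold lower and lay at 9.06, 9.06 and 8.92 against 8.60 and 8.38. Not all absorptive genes went this way. The water channel Aqp8 lay at 11.65, 11.55 and 11.42 in the control pools and at 12.06 and 11.97 in the heme pools. It was 1.39-fold higher (adjusted p = 0.0295 in the 4-group fit, and 0.0689 with the day 2 term). Of the 24 colonocyte markers 7 lay above and 4 below all control pools, against 11.7% and 7.72% of all genes.

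Single genes of goblet cells and of mucosal defence were also among the lowest. Ang4, an antimicrobial ribonuclease, lay at 7.45, 8.01 and 7.88 in the control pools and at 7.15 and 6.82 in the heme pools, 1.73-fold lower. Retnlb, a goblet cell resistin-like protein, lay at 9.77, 9.73 and 10.08 against 9.25 and 9.15, 1.58-fold lower. Of 13 tested goblet genes, of 14 listed, these 2, Clca1 and Creb3l1 lay below all control pools and the trefoil peptide Tff3 above. Over all genes 7.72% lay below and 11.7% above, and the median difference of the goblet list was -0.04 log2. Duoxa2, the maturation factor of the hydrogen peroxide-producing oxidase Duox2, lay at 8.13, 8.44 and 7.62 against 7.42 and 7.20, with a control spread that reaches close to the heme pools. Saa3, an acute-phase protein, lay at 8.25, 8.26 and 8.18 against 7.97 and 7.36. Its difference came mostly from day 4, and leaving out each pool in turn moved it between -0.87 and -0.27. Of 19 tested enteroendocrine genes 2 lay above all control pools, near the 11.7% of all genes, and 4 below, against 7.72%, among them Chga, the granule protein chromogranin A (log2 difference -0.17).

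Of the 12 lowest genes, 3 are expressed by immune cells. Cd74, the invariant chain of class II antigen presentation, lay at 8.41, 8.37 and 8.73 in the control pools and at 7.73 and 8.22 in the heme pools, 1.44-fold lower, and Ly86, which pairs with a toll-like receptor relative, lay at 6.40, 6.32 and 6.63 against 5.68 and 6.09. Both rest much on the heme pool of day 2, without which the log2 differences were -0.28 for Cd74 and -0.36 for Ly86, against -0.53 and -0.57 with it. An immunoglobulin kappa variable segment of the Igkv9 family, which plasma cells transcribe, lay at 6.66, 6.39 and 6.96 against 5.67 and 6.04, 1.76-fold lower. All 15 listed macrophage and dendritic genes were tested, and 12 were lower than the same day's control pool on both days, against 20.9% of all genes, but only 2 lay below all 3 control pools. Their median lay at -0.01, -0.24 and 0.26 in the control pools of days 0, 2 and 4 and at -0.50 and -0.10 in the heme pools, a spread among the control pools as large as the difference between diets, and it moved with the fibroblast list. The part of connective tissue in these differences was not tested, and fewer immune cells cannot be told apart from less RNA per cell. Abca8a, a lipid transporter of the ABC family, lay at 5.63, 5.54 and 5.94 against 5.15 and 5.23. Of 18 listed genes of interferon response and antigen presentation, 12 were tested. Of these, 6 lay below all control pools and none above, against 7.72% and 11.7% of all genes. The median difference of the list was -0.14 log2. Psmb8, an immunoproteasome subunit, had the lowest difference (1.30-fold lower), at 7.56, 7.41 and 7.41 against 7.04 and 7.13, and B2m, the light chain of class I molecules, was 1.11-fold lower.

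Against the control pool of the same day, nearly all fatty acid differences were larger on day 4 than on day 2. This held for all 12 of the highest genes, for 32 of 34 fatty acid genes and for 24 of 33 Nrf2 targets, against 46% of all genes. The median same-day difference of fatty acid genes was 0.26 log2 on day 2 and 0.43 on day 4, and that of Nrf2 targets 0.09 and 0.15. Fabp1 stood 1.52 above its control pool on day 2 and 2.90 on day 4, Cyp4a10 0.58 and 2.18, and Cbr3 0.67 and 1.53. Both ends of the difference moved. Of the 12 highest genes, 11 were higher in the heme pool of day 4 than in that of day 2, and 11 were also higher in the control pool of day 2 than in the control pools of days 0 and 4. Hspa1a went the other way, with 1.02 on day 2 and 0.64 on day 4. The test of day 4 minus day 2, which leaves 1 residual degree of freedom, called 0 genes, with 1650 (11%) at an unadjusted p under 0.05.

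**Figure D4:**
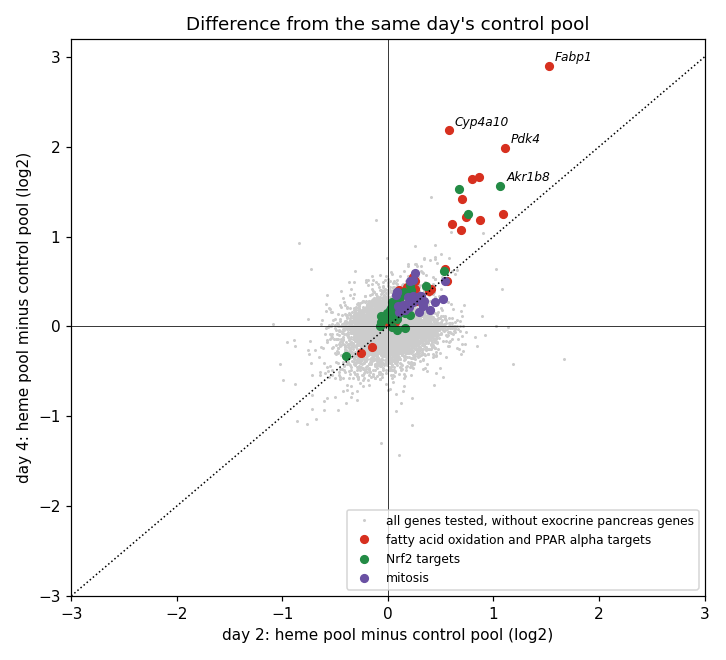
Log2 difference between the heme and the control pool of the same day on day 2 (x axis) and day 4 (y axis), 1 point per gene, with all tested genes outside the exocrine pancreas list in grey, list members in colour and equal differences on the dotted line. Fabp1 lies at 1.52 and 2.90, and 32 of 34 fatty acid genes have the larger difference on day 4.

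The late pools, which the early fit did not use, share no array or control pool with it. However, RMA normalised all arrays together, and the filter on dim genes used means over all of them. Of the 610 genes higher at an unadjusted p under 0.05, 395 (64.8%) had both late heme pools above both late control pools, against 20.7% of all genes tested, and 34 had them below. Of the 365 lower genes, 237 (64.9%) had both late heme pools below both late control pools, against 28.7% of all genes, and 18 had them above. The late comparison alone had 857 genes higher (5.73%) and 1306 lower (8.73%) at an unadjusted p under 0.05. All 12 of the highest genes were again higher without overlap, and 6 of the 12 lowest were again lower, while the immunoglobulin kappa segment was higher. The highest genes include Cyp4a10, which passed the filter on dim genes only through its heme pools, late ones included.

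Late and early differences are set side by side here, and for lists the change was not tested. The median difference of mitosis genes was 0.19 log2 early and 0.60 late, that of Nrf2 targets 0.12 and 0.41, and that of fatty acid genes 0.37 and 0.47. Fabp1 differed by 2.31 early and 4.89 late (late minus early 2.58, unadjusted p = 8.45e-05, adjusted p = 0.135), and Akr1b8 by 1.36 and 2.15 (adjusted p of the change 0.262). Slc13a1 differed by -0.68 and -2.03 (adjusted p of the change 0.174). Vnn1 and Fabp2 were among those with little change, with late minus early at 0.09 (adjusted p = 0.905) and 0.03 (adjusted p = 0.917). Hspa1a differed by 0.91 early and -0.18 late (adjusted p = 0.303). Hmox1 lay at 6.19 and 7.29 in the late heme pools against 5.68 and 5.89 in the late control pools. No gene was called in the late-minus-early test, with 1271 (8.5%) at an unadjusted p under 0.05, and 285 genes were called when the heme pool of day 7 was left out.

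**Figure D5:**
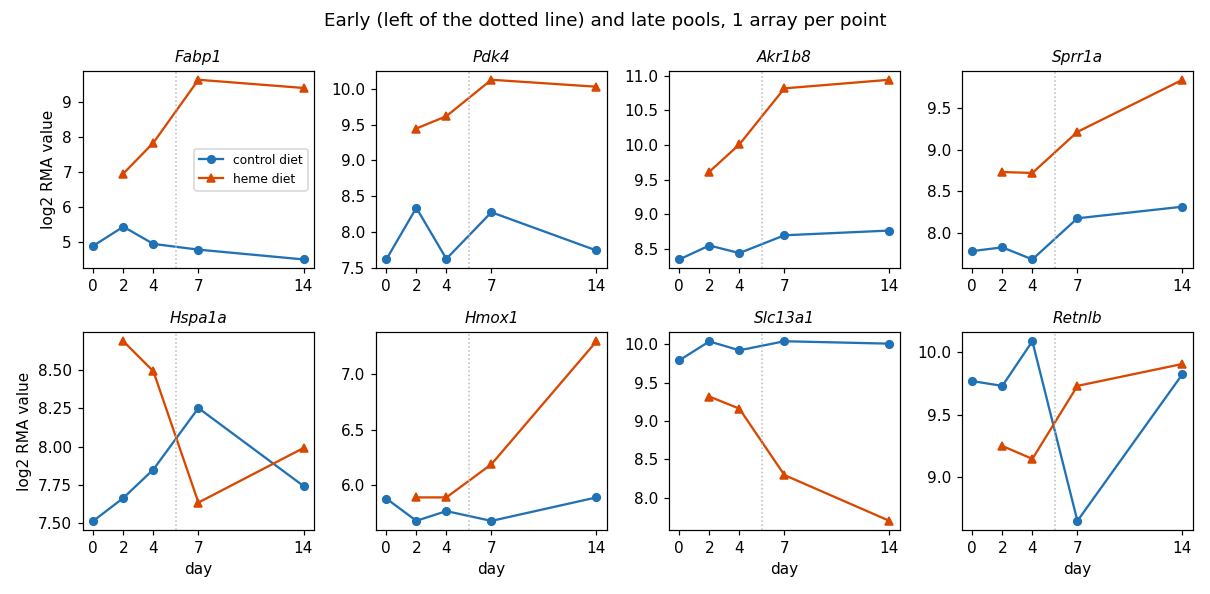
Level (y axis, log2 RMA value) of 8 genes by day (x axis) in the control pools (circles) and heme pools (triangles), 1 array per point and lines joining the pools of a diet, with the early pools left of the dotted line. Fabp1, Pdk4, Akr1b8 and Sprr1a are higher on heme at every day, Slc13a1 is lower at every day, Hmox1 stands apart from day 7 on, and Hspa1a and Retnlb are separated in the early pools and not in the late ones.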

How the data were processed

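RNA of 9 colon pools was measured on Affymetrix whole-transcript mouse arrays, of which 5 enter the early comparison. The authors deposited 1 log2 expression value per probeset and array, which the submitters' processing notes credit to RMA; its version was not given in the sources used here. The method subtracts background, brings all arrays to the same distribution and combines a probeset's probes by median polish. In the deposited values, 2180 of the tested genes had equal values in 2 or more early control pools and 237 in all 3, to the digits deposited. The number of arrays limits the precision.

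Of 35556 probesets, 21789 carried 1 gene symbol in the platform annotation, 1621 several and 12146 none here. The brightest probeset of each of 19938 genes was kept, and genes at or above the 25th percentile of means over all arrays (4.716 log2) were tested. Models were fitted with limma 3.58.1 in R 4.3.3 (eBayes with an intensity trend) after a check on simulated data, and tables were made with Python 3.11.15. Same-day pools share a day on diet per the labels but no animals. Their deviations from the group means, over all genes tested, correlated with r = 0.529 on day 2 and 0.429 on day 4. Without exocrine pancreas genes r was 0.088 and 0.226, and 0.163 for the heme pool of day 2 with the control pool of day 0. With 2 heme pools, their deviations are equal and opposite, so the values of the 2 days are not separate evidence. The day as a block is an alternative.

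Members and lists were chosen with earlier results of these data known. Named were up to 12 genes per direction outside the exocrine pancreas list, with an unadjusted p under 0.05, both heme pools beyond all 3 control pools and beyond the same day's control pool, ranked by log2 difference, then the extreme members of lists, called members and 13 fixed genes. Ehhadh, Acot2, Fabp2, Angptl4, Hadha, Cpt2, Acaa2, Sod1, Gpx4, Abcg2 and some list members were named after their values were seen. Genes whose probesets carry no or several symbols were not analysed.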

Additional observations from a re-analysis of the deposited data

Results flagged for a closer look

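For 3 of the genes named, the heme pool lay below the same day's control pool on both early days and above it on both late days. The late difference minus the early difference was 1.28 log2 for the immunoglobulin kappa segment of the Igkv9 family (unadjusted p = 0.00051, adjusted p = 0.219), 1.24 for Retnlb (unadjusted p = 0.0146, adjusted p = 0.458) and 0.57 for Slc7a11 (unadjusted p = 0.0565, adjusted p = 0.592) in limma's fit over all 9 arrays, and none was called. Retnlb lay at 8.65 and 9.82 in the late control pools of days 7 and 14, the first of which was the lowest of all 9 pools, and at 9.73 and 9.90 in the late heme pools.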

How the results depend on the processing

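The early count of 0 calls became 1 with robust eBayes, 1 with the filter at the 50th percentile, 1 with arrays shifted to 1 median and 1 at an adjusted p under 0.1. It became 9 (8 higher, 1 lower) against all 5 control pools, 31 with all 9 arrays in 4 groups and 16 with a day 2 term added to that fit, an alternative chosen after seeing the data. It stayed at 0 to 0 without each pool in turn and at 0 with the day as a replicate block. The late count of 5 became 0 without an intensity trend, 8 with robust eBayes, 0 with no filter on dim genes, 20 with the filter at the 50th percentile, 227 with arrays shifted to 1 median and 176 with the block, and 0 to 0 without each pool. The late-minus-early count of 0 ranged from 0 to 285 without each pool. The cause was not tested. Of 54 named genes, 2 turned their sign, both near 0: Lgr5 (0.0086 without the control pool of day 0, with the block and with same-day controls, 0.0157 against all 5 control pools, and -0.0673 to 0.0419 without each pool) and Muc2 (0.0069 without both day 2 pools, 0.0035 against all 5 control pools, and -0.0615 to 0.0056 without each pool). The median of fatty acid genes stayed between 0.33 and 0.47 log2, of Nrf2 targets between 0.11 and 0.15 and of mitosis genes between 0.14 and 0.28. The number of arrays, 1 per diet and day, limits every comparison.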

Other observations

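Several groups differed little in the early pools. Genes of cholesterol synthesis and lipogenesis had a median difference of -0.03 log2, with 2 of 21 tested above all control pools and 1 below. Over all genes 11.7% lay above and 7.72% below. In the late pools the median difference of the cholesterol and lipogenesis list was 0.36. The list median lay at 0.15 in the control pool of day 0 and at -0.12 in that of day 4, a wider spread than between diets. The 16 genes of ER stress and the ATF4 response had 1 above and 1 below. Apoptosis and p53 genes had 4 of 15 below and none above, circadian clock genes 4 of 15 below and none above, and NF-kB inflammation genes 2 of 11 below and none above, against 7.72% of all genes below. Crypt stem cell genes had a median of 0.02, and tuft cell genes of -0.08 with 2 of 10 below and 1 above.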
